A study of Mus musculus with 12 samples.

Results

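The enzymes that build and remodel phospholipids and sphingolipids were followed in the transcriptome of mouse CD8+ T cells. The set held 38 of the 54532 genes listed in the files, and its members were chosen by gene name for the known role of their enzymes. This choice, and that of the other gene lists below, was made with earlier results of these data known. The members cover 9 roles, from the first acylation of glycerol-3-phosphate to the use of ceramide. RNA sequencing had been done on primary CD8+ T cells that had been given either non-targeting siRNA (siNTC) or *Creb1* siRNA (si*Creb1*), each with the vehicle DMSO or with *trans*-vaccenic acid (TVA), a long-chain *trans* fatty acid, for 24 hours. The labels give the siNTC cells as wild type (WT) and the si*Creb1* cells as *Creb1* knockdown, and each of the 4 groups held 3 libraries. A group with the fatty acid is named by its siRNA followed by "plus TVA".

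The cells were isolated from C57BL/6 mice and activated with antibodies to CD3 and CD28, so all 4 groups describe activated cells in culture and none describes resting cells. The siRNA gives a transient and partial loss of *Creb1* transcript. Nothing in the labels says whether the 3 libraries of a group came from separate animals or cultures, and the p-values therefore measure the spread between libraries, which may be technical. The libraries held 16660234 to 24602484 reads assigned to genes, with a median of 20759165, as recovered from the deposited FPKM values, which scale reads by gene length and library total. The si*Creb1* plus TVA libraries were the deepest, with a median of 23616471 reads, and the siNTC plus TVA libraries the shallowest, with a median of 18439724.

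Glycerophospholipids start from glycerol-3-phosphate, which acyltransferases turn into lysophosphatidic acid and then into phosphatidic acid. Phosphatidic acid is either dephosphorylated to diacylglycerol, which receives choline or ethanolamine in the Kennedy pathway, or activated to CDP-diacylglycerol for phosphatidylinositol and cardiolipin, and finished phospholipids exchange their acyl chains through phospholipases and lysophospholipid acyltransferases. Sphingolipids start from serine and palmitoyl-CoA and pass through ceramide to sphingomyelin or glucosylceramide, and dividing T cells draw on both branches for new membrane.

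*Creb1* itself was measured before any lipid gene, as a check of the labels. In cells with siNTC its FPKM was 11.0, 10.3 and 10.5 under DMSO and 11.0, 12 and 12.4 under TVA. In cells with si*Creb1* it was 1.19, 1.29 and 1.77 under DMSO and 1.81, 1.67 and 1.17 under TVA. All 6 knockdown libraries lay below all 6 control libraries. Markers of CD8+ T cells matched the stated cell type, since all 6 genes of that list were above the expression filter and summed to between 1820 and 1930 FPKM, led by *Cd8b1* with a mean of 887 FPKM. Within this list, knockdown without TVA called 5 of 6 genes in limma, beside 13.7% of all 11550 genes tested, with *Cd8b1* (−0.16), *Cd3d* (−0.15) and *Cd3g* (−0.13) lower and *Cd8a* (0.09) and *Gzmb* (0.43) higher. Knockdown with TVA called 3 of 6, beside 10.1% of all genes, with *Cd8b1* (−0.14) and *Cd3d* (−0.13) lower and *Cd8a* (0.09) higher. With FPKM rescaled to TPM each of these lower calls was lost (limma, adjusted p from 0.0551 to 0.278). Quantile normalization ended them too (0.0589 to 0.653), except that of *Cd8b1* without TVA, and left estimates of −0.02 for *Cd8b1* with TVA and of −0.05 and −0.07 for *Cd3d* without and with TVA. The *Cd3d* call also ended in a fit of the compared libraries alone (0.0533, without TVA) and, with TVA, without siNTC plus TVA library 3 (0.0509) or si*Creb1* plus TVA library 2 (0.0570) or 3 (0.0540), and the *Cd8a* call without TVA ended in the fit of the compared libraries (0.0633). The dendritic cell list summed to at most 0.930 FPKM with all 4 genes under 1, the CD4 T cell list to at most 6.20, the myeloid list to at most 9.18 and the B cell list to at most 14.2. The natural killer list reached 31.6 to 35.5 FPKM, nearly all of it *Eomes* (mean 29.6 FPKM), which CD8+ T cells also express.

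Markers of other cells also moved with the knockdown, most of all the list for red cells and platelets. Its 4 genes summed to 151, 158 and 158 FPKM in siNTC and to 144, 149 and 146 after adding TVA. After knockdown they summed to 91.8, 97.0 and 93.7 under DMSO and to 118, 112 and 114 under TVA. The chemokine genes *Ppbp* (mean 67.5 FPKM) and *Pf4* (mean 60.0 FPKM), 2 of the 4 genes, made up this sum, *Hbb-bs* was listed at 0 in every library and *Hba-a1* never passed 0.424 FPKM. *Ppbp* fell by 0.79 on the log2 scale with knockdown in the absence of TVA (limma, adjusted p = 2.9e-05) and *Pf4* fell by 0.62 (limma, adjusted p = 5.5e-05). With TVA on both sides both were lower after knockdown too. *Ppbp* had a mean of 77.3 FPKM in siNTC plus TVA and 61.5 in si*Creb1* plus TVA, and *Pf4* had 68.9 and 52.8. The myeloid list held 6.47, 5.98 and 5.50 FPKM in control cells with TVA and 9.18, 8.42 and 8.40 in knockdown cells with TVA, while under DMSO it held 7.27, 6.26 and 6.55 against 6.57, 7.60 and 5.08. Its most abundant gene *Lyz2* (mean 6.19 FPKM, with the other 5 genes under 1) was higher after knockdown with TVA (0.40; limma, adjusted p = 0.0478), a call that stood in 2 of the 12 fits that left out a library. With TVA in si*Creb1* cells, the mean sum went from 94.2 to 114 FPKM for red cells and platelets and from 6.42 to 8.66 for myeloid cells. The knockdown comparisons and the TVA comparison in si*Creb1* cells below carry these differences too, and their part in the results on lipid genes was not tested. In bulk RNA, fewer cells of a type and less RNA per cell cannot be told apart.

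The members covered a wide range of expression. *Ugcg*, which makes glucosylceramide from ceramide, stood far above the others with a mean of 91.7 FPKM over the 12 libraries. It was followed by *Cds2* (33.1 FPKM), which makes CDP-diacylglycerol, the ceramide synthase *Cers2* (32.0), the ceramide desaturase *Degs1* (29.5) and *Pcyt2* (27.4), which activates phosphoethanolamine. In all, 9 members had a mean of at least 20 FPKM, 7 lay between 10 and 20, 6 between 5 and 10, 13 between 1 and 5, and 3 under 1. Those 3, *Chkb* (0.446 FPKM), *Lpcat2* (0.279) and *Mboat2* (0.049), were below the filter of a mean of 1 FPKM, so 35 of the 38 members were tested among 11550 genes. The median tested member had a mean of 8.01 FPKM, close to the 8.17 FPKM of all tested genes. The least covered tested member, *Gpam*, still had 127 reads in its lowest library.

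**Figure D1:**
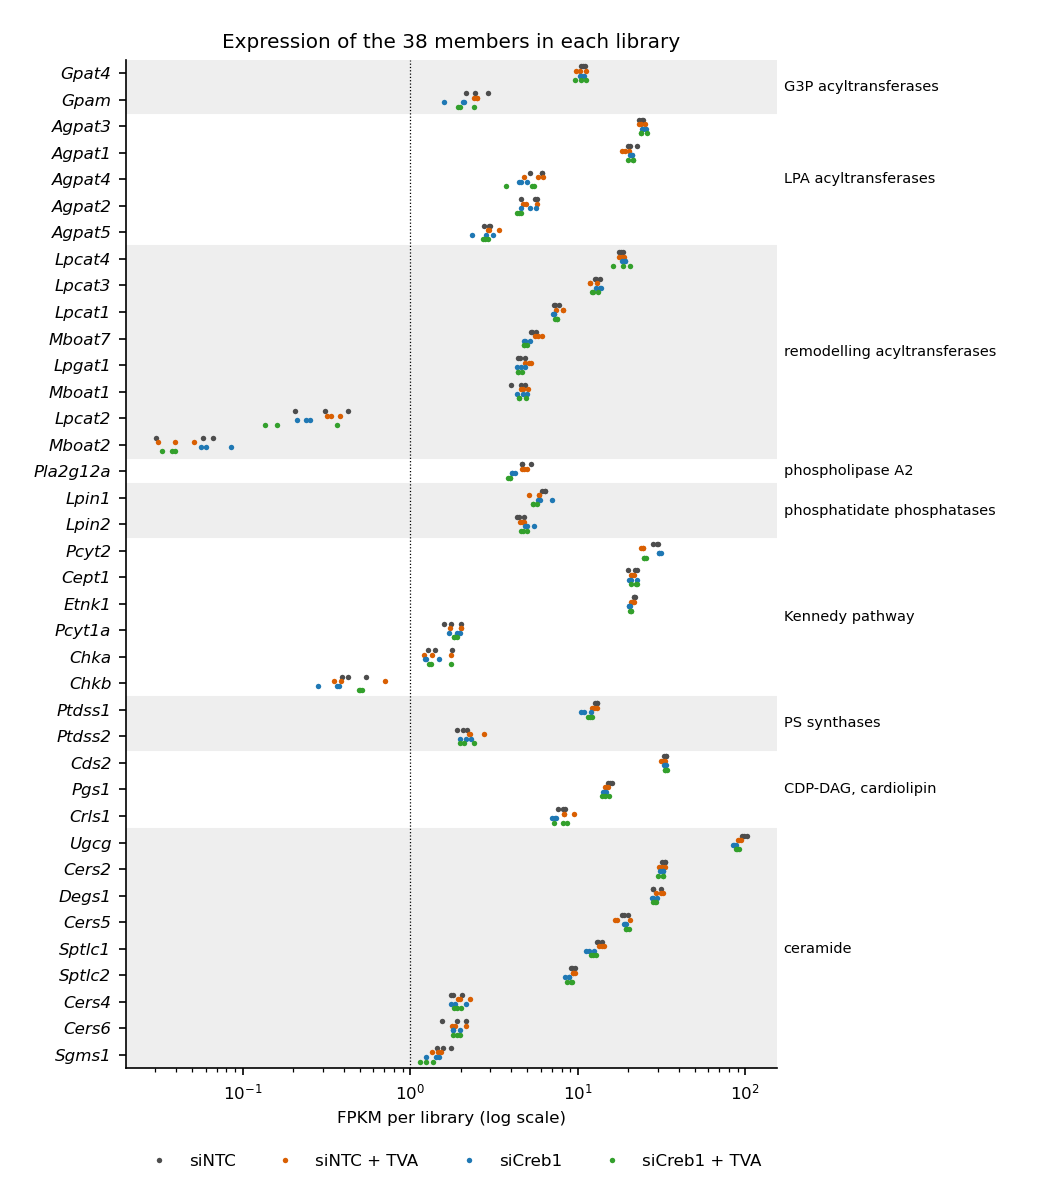
FPKM of the 38 members on a log axis, 1 point for each of the 12 libraries coloured by group and members ordered by role, with the dotted line at 1 FPKM. *Ugcg* (84.8 to 103 FPKM) is the most abundant member, and *Chkb*, *Lpcat2* and *Mboat2* lie left of the line.

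Within families, the same isoforms led in all 12 libraries. *Cers2*, which makes very-long-chain ceramides, gave 56.5 to 61.3% of the summed FPKM of the 4 ceramide synthase members, and *Cers5* gave 31.1 to 36.7%. *Agpat1* and *Agpat3* together gave 74.3 to 80.7% of the 5 *Agpat* members. *Ptdss1* was 4.38 to 6.79 times as high as *Ptdss2* in FPKM, and *Pcyt2* was 11.8 to 18.8 times as high as *Pcyt1a*, the corresponding enzyme of the choline arm. The FPKM of all 38 members summed to 498 ± 3.10 in siNTC cells under DMSO and 483 ± 3.16 under TVA, and to 476 ± 5.59 and 475 ± 7.02 in the corresponding knockdown cells (SD, n = 3 each). These sums are dominated by abundant members, as *Ugcg* alone took 17.9 to 20.7% of them.

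Few members responded to TVA. In siNTC cells, 1 of the 35 tested members (2.86%) passed a Benjamini-Hochberg adjusted p of 0.05 in limma, against 852 genes or 7.38% of all genes tested, and that member, *Pcyt2*, was lower with TVA, as were 2.88% of all genes. The median log2 fold change of the members was −0.008, beside −0.006 for all genes. In si*Creb1* cells, *Pcyt2* was again the member that passed, 1 of 35, while 62 genes or 0.537% of all genes passed and 0.416% were lower. There the median was 0.004 for members and −0.001 for all genes. Fold changes are differences of log2(FPKM + 1), a scale that understates the changes of genes with low values.

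After *Creb1* knockdown the members called in limma with all 12 libraries were lower, in numbers that moved with the setting. Without TVA, 5 of 35 members (14.3%) passed, all lower, beside 13.7% of all genes in either direction and 7.21% of all genes lower. This count was 1, which was *Ugcg*, with FPKM rescaled to TPM, in a fit of the compared libraries alone, and without siNTC library 1, si*Creb1* library 1 or si*Creb1* library 3, where 7.07 to 10.7% of all genes passed. It was 2 without siNTC library 2, and 3 without si*Creb1* library 2, with all genes above 0 tested or with the replicate block, where 3.34 to 12% of all genes passed. With TVA on both sides, 2 of 35 members (5.71%) passed, both lower, beside 10.1% of all genes in either direction and 5.51% lower. Here the count was 1 with TPM, 1 without siNTC plus TVA library 1 or si*Creb1* plus TVA library 2, and 0 in limma without si*Creb1* plus TVA library 3, where 5.20 to 6.55% of all genes passed. In the limma fit of all 12 libraries, 5 of 35 members (14.3%) had an unadjusted p under 0.05, beside 26.2% of all genes. The share of members called in either direction was thus near that of all genes without TVA and below it with TVA. Estimates were below 0 for 24 of 35 members without TVA and 25 of 35 with TVA, with medians of −0.031 and −0.039 against −0.001 and −0.012 for all genes. With TPM 15 of 35 and 16 of 35 were below 0, with medians of 0.010 and 0.005 against 0.043 and 0.037 for all genes, so in both scalings the members' median lay below that of all genes. The TVA comparisons and the knockdown comparisons share their libraries, the siNTC group serving as control for both, so their estimates are not independent of each other.

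Whether the response to TVA differed between siNTC and si*Creb1* cells was tested as an interaction. Of the 35 members, 0 passed in limma, beside 2.24% of all genes. At an unadjusted p under 0.05 there was 1 (2.86%), beside 14.3% of all genes, and in limma-voom on recovered reads 1 passed, beside 3.86% of all genes. Both were *Ugcg*. For the members that did not pass, the data set limits on the size of a change. The 95% confidence interval of limma had a median half-width of 0.12 on the log2 scale in the 4 pairwise comparisons and 0.16 in the interaction. It lay within 0.5 of 0 for all members not called in either TVA comparison (34 of 34 each), for 33 of 33 in the knockdown comparison with TVA, for 35 of 35 in the interaction, and for 29 of 30 in the knockdown comparison without TVA, where *Agpat4* was the exception. Because the scale is log2(FPKM + 1), the same limit allows a larger relative change of FPKM for members with low values.

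**Figure D2:**
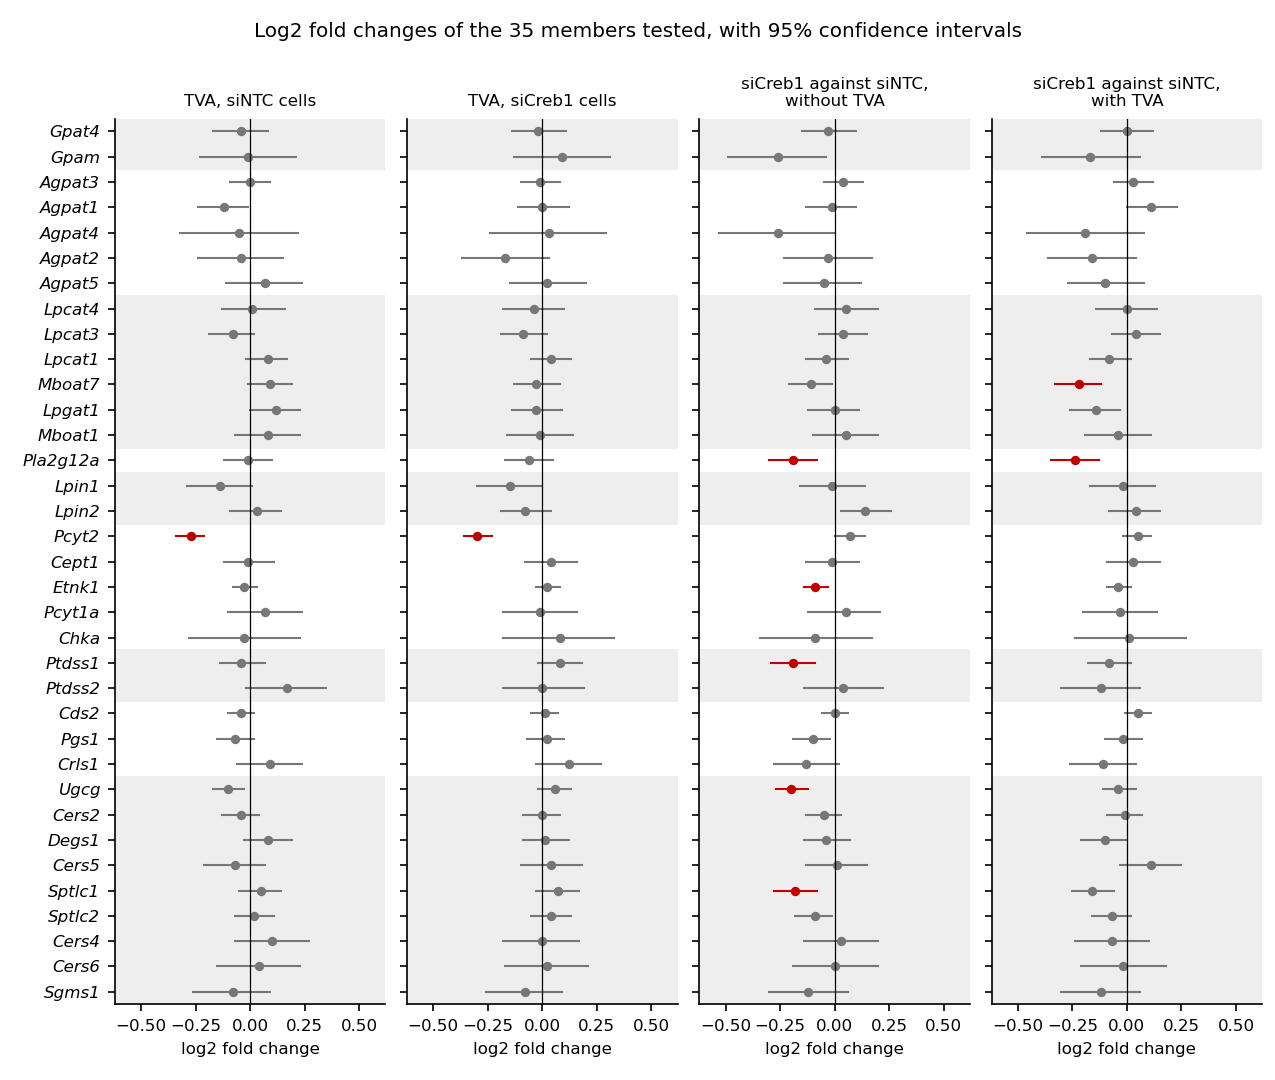
Log2 fold changes of the 35 tested members with 95% confidence intervals of limma, in the 4 pairwise comparisons, with called members in red and the others in grey. *Pcyt2* stands apart on the negative side in both TVA comparisons (−0.27 and −0.30), and the called members of the knockdown comparisons lie between −0.24 and −0.09.

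The entry enzymes did not pass in any comparison. *Gpat4* of the endoplasmic reticulum (mean 10.6 FPKM) and *Gpam* of the mitochondrial outer membrane (2.25 FPKM) acylate glycerol-3-phosphate. *Gpam* had an estimate of −0.26 with knockdown without TVA (limma, adjusted p = 0.108). The 5 *Agpat* members, which make phosphatidic acid, had estimates from −0.12 to 0.07 for TVA in siNTC cells and from −0.26 to 0.04 for knockdown without TVA. *Agpat1* was among the 2 uncalled members nearest the threshold for TVA in siNTC cells, at −0.12 (limma, adjusted p = 0.188), and *Agpat2* among those nearest it in si*Creb1* cells, at −0.17 (limma, adjusted p = 0.611).

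Remodelling enzymes put new acyl chains onto lysophospholipids, and 6 of the 8 members with this role were tested. *Lpcat3*, which favours polyunsaturated chains, had group means of 13.0 FPKM in siNTC and 12.2 with TVA added, against 13.4 and 12.6 after knockdown, and passed in none of the comparisons. The member of this role that passed was *Mboat7*, which places arachidonic acid on lysophosphatidylinositol (ENSMUSG00000035596, minus strand of chromosome 7 from 3677789 to 3693523 in GRCm38). The siNTC libraries had 5.31, 5.65 and 5.28 FPKM under DMSO and 6.13, 5.76 and 5.58 under TVA, and the knockdown libraries had 5.18, 4.87 and 4.78 under DMSO and 5.00, 4.76 and 4.76 under TVA. Every knockdown library lay below every control library.

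With TVA on both sides, *Mboat7* changed after knockdown by −0.22 ± 0.046 on the log2 scale (SE; limma, adjusted p = 0.0151), a drop of the mean FPKM of −16.9%. Without TVA the estimate was −0.11 (limma, adjusted p = 0.151), and the difference between these effects was −0.11 (limma interaction, adjusted p = 0.480). The call in TVA-treated cells was lost without siNTC plus TVA library 1 (limma, adjusted p = 0.0506), without si*Creb1* plus TVA library 2 (0.0546) or library 3 (0.0513), and when FPKM was rescaled to TPM (0.0781), within a range that reached 0.0781 over all alternatives. *Lpgat1*, which also belongs to this role, came near the threshold in the same comparison at −0.14 (limma, adjusted p = 0.0997). *Mboat7* shares bases with *Tsen34* (mean 8.73 FPKM) on the opposite strand, and whether counting used the strand is not given in the sources used here, so reads in the shared stretch cannot be assigned with certainty.

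*Pla2g12a* encodes a secreted phospholipase A2 and was the member called in both knockdown comparisons (ENSMUSG00000027999, plus strand of chromosome 3 from 129878606 to 129895825). With siNTC it stood at 5.24, 4.64 and 4.65 FPKM under DMSO and at 4.63, 4.98 and 4.78 under TVA. With knockdown it stood at 4.25, 4.06 and 4.07 under DMSO and at 3.94, 3.96 and 3.85 under TVA. The knockdown libraries were all lower than the control libraries, and TVA moved neither control nor knockdown cells past the threshold. The knockdown effect was −0.19 ± 0.049 without TVA (SE; limma, adjusted p = 0.0301) and −0.24 ± 0.049 with TVA (limma, adjusted p = 0.0152), or −14.8% and −18.3% of the mean FPKM. The interaction was −0.05 (limma, adjusted p = 0.815).

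The *Pla2g12a* call without TVA stood in 8 of the 12 fits that left out a library, and the call with TVA in 10 of the 12. In the comparison without TVA, adjusted p in limma was 0.0891 without siNTC library 1, 0.0552 without si*Creb1* library 1, 0.0895 without library 2 and 0.0867 without library 3, and the call was also lost under 5 other settings, with adjusted p up to 0.111. In the comparison with TVA it was 0.0566 without siNTC plus TVA library 2 and 0.0511 without si*Creb1* plus TVA library 3. The direction was lower after knockdown in every one of these fits.

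The phosphatidate phosphatases *Lpin1* (mean 5.91 FPKM) and *Lpin2* (4.75), which make diacylglycerol, did not pass in limma. *Lpin1* was the member after *Pcyt2* nearest the threshold for TVA in si*Creb1* cells, at −0.15 (limma, adjusted p = 0.506). *Lpin2* had an estimate of 0.14 with knockdown without TVA (limma, adjusted p = 0.101), among the members nearest the threshold there, as was *Pgs1* at −0.10 (0.0978). In limma-voom on recovered reads *Lpin2* did pass, and was higher after knockdown (0.19; adjusted p = 0.0216, against 0.0743 to 0.207 in the other settings that kept every compared library).

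The clearest change of a member with TVA was in *Pcyt2*, a gene of the ethanolamine arm of the Kennedy pathway. *Pcyt2* encodes the enzyme that makes CDP-ethanolamine and sets the rate of this arm (ENSMUSG00000025137, minus strand of chromosome 11 from 120610087 to 120617936). Control cells had 28.3, 30.3 and 29.8 FPKM under DMSO against 24.5, 24.4 and 23.7 under TVA. In the knockdown cells it was 30.6, 30.5 and 31.6 without TVA and 24.8, 25.4 and 24.9 with TVA. All 6 TVA libraries lay below all 6 DMSO libraries, with a gap between the highest TVA library (25.4) and the lowest DMSO library (28.3).

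The log2 fold change of *Pcyt2* with TVA was −0.27 ± 0.030 in siNTC cells (SE, 95% confidence interval −0.34 to −0.21; limma, adjusted p = 0.000278). After knockdown it was −0.30 ± 0.030 (−0.36 to −0.23; limma, adjusted p = 0.00108). As a change of the mean FPKM this was −17.8% and −19.1%. The difference between the effects was −0.02 (95% confidence interval −0.12 to 0.07; limma interaction, adjusted p = 0.871), so any difference larger than 0.12 on the log2 scale lay outside the interval. Knockdown gave estimates of 0.07 without TVA (limma, adjusted p = 0.159) and 0.05 with TVA (0.358). By p-value *Pcyt2* was 9th of the 333 genes that were lower with TVA in siNTC cells and 9th of the 48 that were lower in si*Creb1* cells.

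No call was made in the choline arm, and the difference between the arms was not tested. *Pcyt1a*, which makes CDP-choline, was at 1.85 FPKM and the choline kinase *Chka* at 1.42 FPKM, and neither passed in any comparison. For TVA in siNTC cells the 95% confidence interval was −0.10 to 0.24 for *Pcyt1a* and −0.28 to 0.23 for *Chka*, so for *Chka* it holds a change of the size seen in *Pcyt2*. The ratio of *Pcyt2* to *Pcyt1a* in FPKM was 16.8 ± 2.38 in siNTC and 12.7 ± 1.34 once TVA was added, and after knockdown 16.7 ± 1.18 and 13.6 ± 0.0966 (SD, n = 3 each). The siNTC group of this ratio (14.1 to 18.8) overlapped the siNTC plus TVA group (11.8 to 14.3), whereas the si*Creb1* group (15.5 to 17.9) lay above the si*Creb1* plus TVA group (13.4 to 13.6). *Cept1* (mean 21.5 FPKM), the phosphotransferase that completes both arms, did not pass either. For TVA in siNTC cells the estimates were −0.01 for *Cept1* and −0.03 for *Etnk1*. *Selenoi*, a head group gene outside the members, went the other way from *Pcyt2* there, from a mean of 3.34 to 3.82 FPKM, but was not called in limma.

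*Etnk1*, the ethanolamine kinase that acts before *Pcyt2*, was called for knockdown without TVA (ENSMUSG00000030275, plus strand of chromosome 6 from 143167221 to 143232307). Under DMSO it had 21.9, 21.6 and 21.6 FPKM with siNTC and 20.5, 20.2 and 20.3 with knockdown. Under TVA it had 20.8, 21.7 and 21.3 FPKM with siNTC and 20.5, 20.9 and 20.7 with knockdown. The siNTC and si*Creb1* libraries did not overlap, whereas the groups with TVA did. The effect without TVA was small, at −0.09 ± 0.024 (SE; limma, adjusted p = 0.0362) or −6.1% of the mean FPKM. With TVA it was −0.04 (limma, adjusted p = 0.353), and the interaction was 0.05 (adjusted p = 0.567).

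This call of *Etnk1* stood in 5 of 21 other fits. Leaving out any siNTC library (limma, adjusted p from 0.0671 to 0.0947), any si*Creb1* library (0.0724 to 0.105), any si*Creb1* plus TVA library (0.0513 to 0.0537) or siNTC plus TVA library 3 (0.0508) ended it. With FPKM rescaled to TPM the estimate was −0.04 (limma, adjusted p = 0.428). *Etnk1* overlaps the antisense gene *1700126G02Rik* (mean 1.51 FPKM).

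Phosphatidylserine is made by exchange of head groups, and the more abundant of its synthases was lower after knockdown. *Ptdss1*, which uses phosphatidylcholine (ENSMUSG00000021518, plus strand of chromosome 13 from 66932830 to 66998401), had 13.0, 13.1 and 12.6 FPKM in siNTC cells and 10.9, 12 and 10.5 in knockdown cells. With TVA the values were 12.5, 12.1 and 13.0 FPKM in siNTC cells and 12.1, 11.5 and 11.8 in knockdown cells. Without TVA the knockdown libraries lay below the control libraries, and with TVA the lowest control and the highest knockdown library both rounded to 12.1 FPKM. Without TVA the effect was −0.19 ± 0.045 (SE; limma, adjusted p = 0.0190) or −13.4% of the mean FPKM. With TVA it was −0.08 (limma, adjusted p = 0.287), and the interaction was 0.11 (adjusted p = 0.477).

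The *Ptdss1* call ended without siNTC library 1 (limma, adjusted p = 0.0520) or library 2 (0.0575), without si*Creb1* library 1 (0.0643) or library 3 (0.0657), with TPM (0.130) and in a fit of the 6 compared libraries alone (0.0752). *Mterf3* (mean 7.69 FPKM) overlaps *Ptdss1* on the opposite strand. *Ptdss2*, which uses phosphatidylethanolamine, was at 2.19 FPKM and did not pass.

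*Cds2*, *Pgs1* (mean 14.9 FPKM) and the cardiolipin synthase *Crls1* (8.01 FPKM) carry phosphatidic acid towards phosphatidylinositol and cardiolipin. They passed in 0 of the comparisons in limma, and limma-voom called none of the 3 either. For knockdown without TVA, 1 of the 3 (33.3%), *Pgs1*, had an unadjusted p under 0.05 in limma, beside 28.1% of all genes. *Cds2* ranged only from 31.6 to 34.0 FPKM over the 12 libraries.

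Ceramide synthesis begins with serine palmitoyltransferase, and its subunit *Sptlc1* was called for knockdown without TVA (ENSMUSG00000021468, minus strand of chromosome 13 from 53332748 to 53377397). Without TVA its FPKM was 13.9, 13.3 and 13.1 in siNTC cells and 11.2, 12.5 and 11.6 in knockdown cells. With TVA it was 13.4, 14.3 and 14.0 in siNTC cells and 12.4, 12 and 12.8 in knockdown cells. All 6 knockdown libraries were below all 6 control libraries. The effect was −0.18 ± 0.045 without TVA (SE; limma, adjusted p = 0.0244), −12.4% of the mean FPKM, and −0.16 with TVA, just outside the threshold (limma, adjusted p = 0.0523). The interaction was 0.02 (limma, adjusted p = 0.915).

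The *Sptlc1* call without TVA ended when siNTC library 1 (limma, adjusted p = 0.0793), siNTC library 2 (0.0532), si*Creb1* library 1 (0.0866) or si*Creb1* library 3 (0.0740) was left out. It also ended with all genes above 0 tested (0.0571), with TPM (0.0877) and in a fit of the compared libraries alone (0.0854). The call with TVA, in turn, appeared without si*Creb1* library 1 (0.0461) or library 2 (0.0356) and with a filter of at least 5 FPKM (0.0393). The partner subunit *Sptlc2* (mean 9.12 FPKM) had an estimate of −0.09 for knockdown without TVA (limma, adjusted p = 0.155).

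*Ugcg*, the most abundant member, was also lower after knockdown (ENSMUSG00000028381, plus strand of chromosome 4 from 59189257 to 59222833). The values without TVA were 98.2, 95.2 and 103 FPKM with siNTC and 88.3, 84.8 and 85.5 with knockdown. Those with TVA were 90.0, 94.8 and 91.6 FPKM with siNTC and 88.1, 92.0 and 88.9 with knockdown. The siNTC libraries were the highest and the si*Creb1* libraries the lowest apart from an overlap with si*Creb1* plus TVA, and the groups with TVA overlapped each other. Without TVA the knockdown effect was −0.20 ± 0.033 (SE; limma, adjusted p = 0.00417), or −12.8% of the mean FPKM. This call stood in all 21 other fits, with adjusted p up to 0.0374.

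With TVA on both sides the knockdown effect on *Ugcg* was −0.04 (limma, adjusted p = 0.503), and TVA in siNTC cells gave −0.10 (0.109), the nearest to the threshold of the uncalled members. The interaction was 0.16 (95% confidence interval 0.05 to 0.26; limma, adjusted p = 0.138), so limma did not separate the effects, whereas limma-voom did (adjusted p = 0.0251, the lowest over the alternatives). The other ceramide members passed in none of the comparisons. They were the desaturase *Degs1*, the 4 ceramide synthases, the sphingomyelin synthase *Sgms1* (mean 1.42 FPKM) and *Sptlc2*. *Cers5* did pass for TVA in siNTC cells when siNTC plus TVA library 2 was left out, at −0.16 (limma, adjusted p = 0.0441), and for knockdown with TVA in the same fit, at 0.20 (0.0191).

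**Figure D3:**
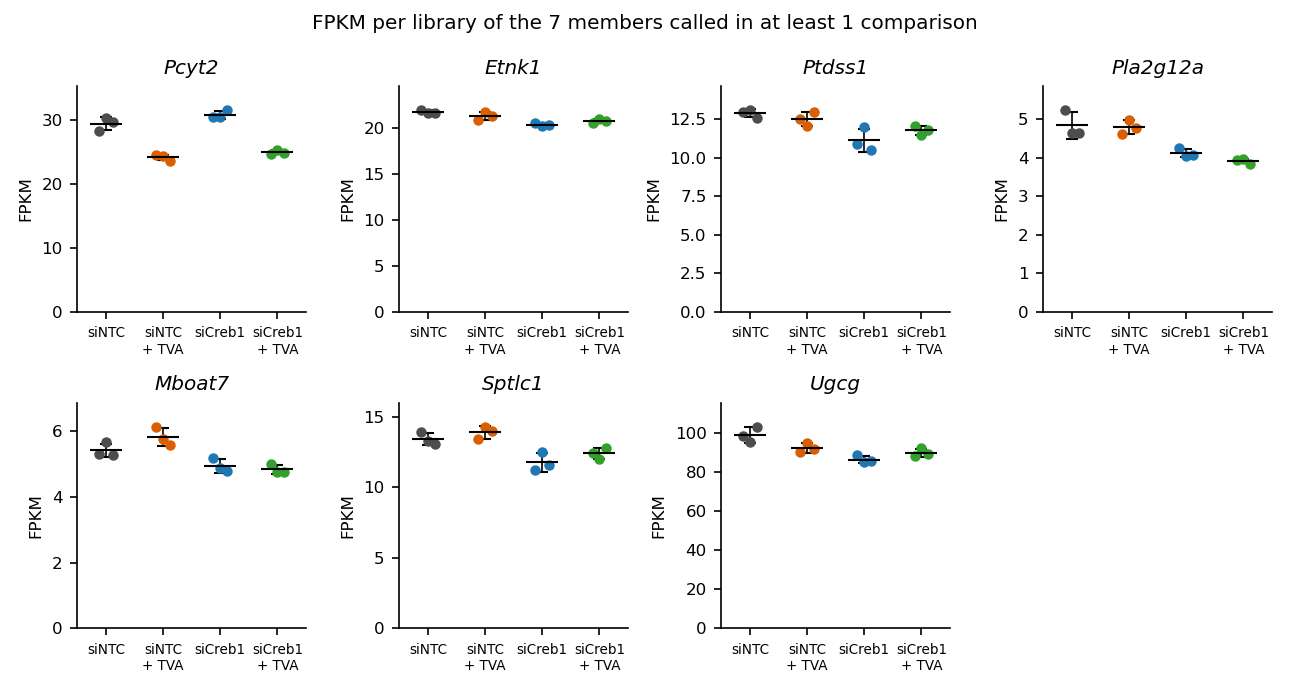
FPKM of the 7 members called in at least 1 comparison, with a point for each library, the group mean as a line and the SD as error bars, all axes starting at 0. *Pcyt2* separates by TVA (23.7 to 25.4 against 28.3 to 31.6 FPKM), and the other 6 are lower in the si*Creb1* than in the siNTC libraries.

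Promoter sequences were searched because CREB1 binds the cAMP response element and because sterol-regulated factors act on many lipid genes. RefSeq windows of GRCm38.p6, from 250 bases before to 50 bases after a start, were found for 34 members in 49 windows. The full element TGACGTCA was in 0 of the 49 windows and in 1.79% of all 32851 windows, counting both strands. Its core TGACG, which the full element contains, was in 13 of 49 member windows and 20.8% of all windows. The sterol regulatory element TCACNCCAC was in 3 of 49 windows, those of *Pcyt1a* and *Pla2g12a*, and in 1.24% of all, and the DR4 element was in 0 of 49 and 0.0152%.

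Of the 6 members called after knockdown, 5 had a window, and 3 are shown as the ones with a match and with sequence outside annotated exons. The windows of *Mboat7* and *Ugcg* held 0 core or sterol elements. Capitals mark the core and sterol elements on either strand, and positions count back from the RefSeq start. The *Pla2g12a* stretch is chr3:129881034-129881183 on the plus strand, which ends just before a RefSeq start that lies 2578 bases inside the gene start given in the files, with a core at −113 to −109 and a sterol element on the reverse strand at −78 to −70. The *Etnk1* stretch is chr6:143167080-143167220 on the plus strand, upstream of the gene, with cores starting at −55, −27 and, reversed, −18. The *Sptlc1* stretch is chr13:53377398-53377511 on the minus strand, upstream of the gene, with a reversed core at −57 to −53. A match describes the letters of a window and is neither a binding site nor a cause of the change.
Pla2g12a: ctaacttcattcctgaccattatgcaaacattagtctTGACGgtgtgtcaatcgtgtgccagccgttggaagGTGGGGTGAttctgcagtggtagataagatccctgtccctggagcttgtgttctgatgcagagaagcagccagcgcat
Etnk1: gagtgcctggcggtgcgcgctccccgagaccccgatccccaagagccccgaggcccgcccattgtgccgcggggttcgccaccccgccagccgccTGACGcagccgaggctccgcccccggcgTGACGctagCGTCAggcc
Sptlc1: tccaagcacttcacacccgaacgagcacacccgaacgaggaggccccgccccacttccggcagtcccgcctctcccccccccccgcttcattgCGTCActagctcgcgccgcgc

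Other genes of the same pathways were taken from a list of 70, of which 43 were tested. With TVA in siNTC cells, 0 of 43 passed in limma beside 7.38% of all genes, and 4 passed in limma-voom, 1 lower and 3 higher, beside 8.79% of all genes. At an unadjusted p under 0.05 there were 11 (25.6%), beside 20.9% of all genes. In si*Creb1* cells 0 passed in limma, beside 0.537% of all genes, and 0 in limma-voom, beside 1.34%, with 3 (6.98%) at an unadjusted p under 0.05 beside 9.58% of all genes. Knockdown without TVA called 6 of 43 (14.0%), all lower, beside 13.7% of all genes in either direction and 7.21% lower. The median was −0.062 over the list and −0.001 over all genes, and with TPM −0.037 and 0.043. In limma-voom 10 of 43 passed, 8 lower and 2 higher, beside 17.1% of all genes, and with TPM 1 passed, which was lower, beside 10.4% of all genes. *Cdipt*, the phosphatidylinositol synthase, went from a mean of 57.1 to 48.8 FPKM, a log2 change of −0.22 (limma, adjusted p = 0.00346). The others were listed under sphingolipid synthesis, where 2 of 11 tested genes were called, or under sphingolipid breakdown, where 3 of 9 were. They were *Cerk* (−0.26) and *B4galnt1* (−0.12) for synthesis, and *Sgpp1* (−0.16), *Smpd1* (−0.20) and *Sphk2* (−0.16) for breakdown. The *Cdipt* call stood in all 12 fits that left out a library and under all 9 other settings. The other 5 calls stood in 2 (*Sphk2*) to 9 (*Sgpp1*) of the 12 and under 2 (*Sphk2*) to 6 (*Sgpp1* and *Cerk*) of the 9. The estimate of *B4galnt1* shrank to −0.06 with quantile normalization (limma, adjusted p = 0.237) and to −0.07 with TPM (0.343).

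With TVA on both sides, knockdown called 6 of the 43 (14.0%), of which 3 were lower and 3 higher, beside 10.1% of all genes in either direction and 5.51% lower. The median was 0.001 over the list and −0.012 over all genes. In limma-voom 7 passed, 4 lower and 3 higher, beside 13.3% of all genes, and with TPM 3 passed, all higher, beside 6.41% of all genes. *Cdipt* was lower (−0.18; limma, adjusted p = 0.0142, but 0.0566 without si*Creb1* plus TVA library 1 and 0.102 with TPM). *Sgpp1* (−0.18) and *Sptssa* (−0.20), the small subunit of serine palmitoyltransferase, were lower too, in 9 and 8 of the 12 left-out fits and under 7 and 4 of the 9 other settings. Both lost their calls with TPM (limma, adjusted p = 0.109 and 0.140) and with quantile normalization, and *Sptssa* also with the replicate block (0.0546). The *Sptssa* means were 51.0 FPKM in siNTC and 50.6 in si*Creb1* cells without TVA, and 57.8 and 50.1 with TVA, so the siNTC plus TVA group was the highest. *Degs2*, a desaturase and hydroxylase of sphingolipids, was higher after knockdown, at a mean of 3.61 FPKM against 2.06 in siNTC plus TVA. This log2 change of 0.59 ± 0.113 (SE; limma, adjusted p = 0.0105) stood in all 12 left-out fits. Without TVA the *Degs2* means were 2.86 FPKM in siNTC and 2.94 in si*Creb1* cells, so the siNTC plus TVA group was the lowest of the 4. *Pnpla6* (0.18) and *B4galt5* (0.16) were higher too, in 6 and 3 of the 12 and under 7 and 5 of the 9 other settings. The *Pnpla6* means were 6.48 FPKM in siNTC and 6.69 in si*Creb1* cells without TVA, and 5.69 and 6.57 with TVA. The interaction called 0 of 43 in limma, beside 2.24% of all genes, and 0 in limma-voom, beside 3.86%. At an unadjusted p under 0.05 there were 7 (16.3%), beside 14.3% of all genes.

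Of 12 listed regulators of lipid gene transcription 9 were tested, and 3 (33.3%) were lower with TVA in siNTC cells, beside 7.38% of all genes in either direction and 2.88% lower. The list was chosen with earlier results of these data known, so these shares are no test of an excess among regulators. *Insig1*, which retains SREBP in the endoplasmic reticulum when sterols are plentiful and is itself an SREBP target, went from 35.9 ± 1.60 to 29.3 ± 0.381 FPKM (SD, n = 3 each), a log2 change of −0.28 (limma, adjusted p = 0.000892). *Srebf1* went from 37.7 ± 2.24 to 31.8 ± 1.37 FPKM (−0.23; limma, adjusted p = 0.00674) and *Srebf2* from 69.7 ± 2.12 to 62.8 ± 1.49 FPKM (−0.15; limma, adjusted p = 0.0132). In a fit of the compared libraries alone the *Srebf1* call ended (0.0734), and the *Srebf2* call ended there (0.0794), with TPM (0.0829), and without siNTC library 2 (0.0504), siNTC plus TVA library 2 (0.0570) or library 3 (0.0504).

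After knockdown *Insig1* was again lower with TVA (−0.30; limma, adjusted p = 0.00354), while *Srebf1* had −0.21 (0.0690) and *Srebf2* −0.14 (0.103). Interactions were −0.02, 0.02 and 0.01, with adjusted p in limma of 0.912, 0.913 and 0.942, so no difference in the TVA effect between siNTC and si*Creb1* cells was detected for these genes. *Mlxip*, a glucose-responsive factor, was higher after knockdown by 0.14 without TVA (limma, adjusted p = 0.0204) and 0.18 with TVA (0.00965). The former call ended without siNTC library 2 (0.0668) or 3 (0.0534), without si*Creb1* library 1 (0.0564), 2 (0.0554) or 3 (0.0602), and in the fit of compared libraries (0.0633). The remaining regulators tested were *Nr1h2* (38.9 FPKM), *Rxrb* (36.3), *Scap* (13.7), *Ppard* (3.41) and *Rxra* (3.03), none of them called, while *Nr1h3* (0.602), *Pparg* (0.0181) and *Ppara* (0.0113) were below the filter.

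**Figure D4:**
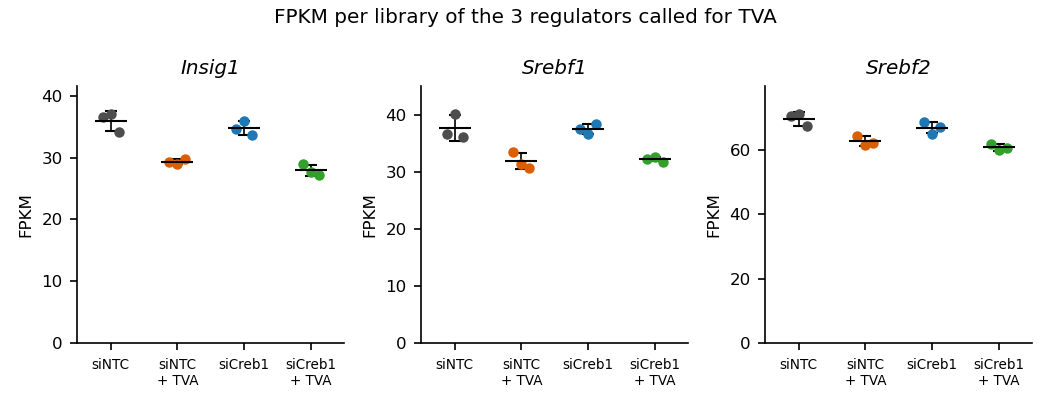
FPKM of *Insig1*, *Srebf1* and *Srebf2* in each library by group, with the group mean as a line, the SD as error bars and axes starting at 0. For each gene the TVA libraries are lower than the DMSO libraries of the same siRNA.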

How the data were processed

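RNA sequencing libraries of mouse CD8+ T cells were analysed from the FPKM values that the authors deposited for each of the 12 libraries. The submitters' processing notes name the builds GRCm38 and mm10. The aligner, the counting tool and the use of strand are not given in the sources used here. FPKM multiplied by gene length, divided by the step that 1 read makes in that library, gave whole reads for at least 99.9952% of the values above 0 in each library (tolerance 0.1), and these recovered reads gave the depth. Groups came from the labels.

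The 11550 of 54532 genes whose FPKM averaged 1 or more were fitted with limma 3.58.1 in R 4.3.3 (with data.table in version 1.17.8) on log2(FPKM + 1), in 1 fit with a coefficient for each group and a mean-variance trend. p-values were adjusted over all genes tested by the Benjamini-Hochberg method, and an adjusted p under 0.05 was a call. Summaries and figures used Python 3.11.15, pandas 2.3.3, numpy 2.4.6, scipy 1.17.1 and matplotlib 3.10.9. The fit was tested on simulated data. Any member could be named. Called members were given in every library, the 2 uncalled members nearest the threshold were named for each main comparison, and up to 10 called genes were named from the list of other pathway genes, beside regulators and cell type markers. The members and lists were chosen with earlier results of these data known.

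Each choice was varied in turn. The pseudocount was set to 0.1, the filter to any value above 0 or to an average FPKM of 5, and the scaling to quantile normalization or TPM. Further fits took the replicate number as a block, dropped the mean-variance trend, used limma-voom with the recovered reads, kept the compared libraries alone, or left out a library. Promoter windows came from RefSeq (GRCm38.p6), and bases in GENCODE vM21 exons were not printed. Protein motifs were not analysed here.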

Additional observations from a re-analysis of the deposited data

Results flagged for a closer look

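Of 17 cell type markers tested, 2 (11.8%) passed limma's test of a difference in the TVA effect between si*Creb1* and siNTC cells, beside 2.24% of all 11550 genes. These markers too were listed with earlier results of these data known, so the shares are no test of an excess. For *Gzmb*, which encodes granzyme B, the interaction was −0.38 on the log2 scale (limma, adjusted p = 0.00254), with a TVA effect of 0.31 in siNTC cells and a knockdown effect of 0.43 without TVA. For *Ppbp*, the platelet chemokine, the interaction was 0.47 (limma, adjusted p = 0.0116), with a TVA effect of 0.36 in si*Creb1* cells (limma, adjusted p = 0.0195). That last call ended without si*Creb1* library 1 (0.101) or 2 (0.0888), without si*Creb1* plus TVA library 1 (0.0825) or 3 (0.0891), with all genes above 0 tested (0.0593), with the replicate block (0.0692) and with only the compared libraries (0.0598). What produced these differences was not tested.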

How the results depend on the processing

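No called fold change of a member changed sign under any alternative. Of 79 values for the 9 member calls under alternatives other than a left-out library, 62 stayed past the threshold and 17 did not, and of 108 values with a library left out, 81 stayed and 27 did not. *Pcyt2* in both TVA comparisons and *Ugcg* for knockdown without TVA stayed called in all 21 fits each. For knockdown without TVA, the 5 members called became 3 with all genes above 0 tested, 1 with TPM, 3 with the replicate block and 1 in a fit of only the libraries compared, and 1 to 5 with a library left out. With limma-voom they were 4, of which *Lpin2* was higher (0.19). Fits with fewer libraries have fewer degrees of freedom, but what moved these counts was not tested. For knockdown with TVA, the 2 members became 1 with TPM, the cause again not tested, and 0 to 3 with a library left out. For TVA in siNTC cells the 1 member became 1 to 2 with a library left out, and in si*Creb1* cells it was always 1. For the interaction, the 0 members became 1 with limma-voom (*Ugcg*, adjusted p = 0.0251), and the cause was not tested, while leaving out a library gave 0 each time. Over all genes, calls outside left-out fits ranged from 368 to 1015 for TVA in siNTC cells (852 in the fit reported), 34 to 155 for TVA in si*Creb1* cells (62), 817 to 1974 for knockdown without TVA (1586), 683 to 1536 with TVA (1172) and 152 to 446 for the interaction (259). The replicate block left the other counts of members at 1, 1, 2 and 0. Libraries with the same number did not deviate together: the 18 correlations of their deviations from the group means ran from −0.0593 to 0.0595 and 0 passed 0.1, so the numbers were not taken as pairs. The interaction has no fit of only the libraries compared, and *Pla2g12a* has no value with a mean FPKM of at least 5. Depth limits the members with the fewest reads, such as *Gpam* with 127 in its lowest library.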

Other observations

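For several steps the isoforms outside the 38 members were nearly silent in these cells. *Cds1* had a mean of 0.00954 FPKM beside 33.1 for *Cds2*, the ethanolamine kinase *Etnk2* had 0.0132 beside 21.0 for *Etnk1*, and the sphingomyelin synthase *Sgms2* had 0.0140 beside 1.42 for *Sgms1*. *Sptlc3* stood at 0.00144 FPKM beside 12.9 for *Sptlc1*, and the small subunit *Sptssb* was listed at 0 while *Sptssa* had 52.4. Among the ceramide synthases, *Cers1* (0.0174) and *Cers3* (0.0179) lay far below the 4 members. The enzyme with the highest level in the wider pathway list was *B4galnt1*, which makes complex gangliosides, with a mean of 156 FPKM, above *Ugcg*. *St3gal5*, which makes the simplest ganglioside from lactosylceramide, had 0.670 FPKM.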
